A study of Mus musculus with 4 samples.

Results

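The genes described here encode the proteins that coat cytosolic lipid droplets or help to build them: *Cidea*, *Cideb* and *Cidec* (the CIDE proteins), *Plin2*, *Plin4* and *Plin5* (perilipins), *G0s2*, *Fitm1*, *Fitm2* and *Bscl2*. Every probe on the array whose accession maps to one of these 10 genes was taken, which gave 12 of 55681 probes. *Cideb* and *Cidec* had 2 probes each and the other genes 1. The 10 genes are among 19752 named genes on the array. The genes were selected on their log2 ratios of *Rap1*-deficient over wild-type liver, with that comparison already known, so its values are given below as a description and not as a test of the group.

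RAP1, encoded by *Terf2ip*, is a telomere-bound protein that also binds elsewhere in the genome, and the study asked how its loss changes expression in the liver of mice that become obese. Liver RNA of 3 *Rap1*-deficient (*Rap1* -/-) and 3 wild-type mice was hybridised in pairs to 4 Agilent 2-colour arrays, on which each array carries one genotype in Cy5 and the other in Cy3. On 3 arrays, replicates 1, 2 and 3, the *Rap1*-deficient RNA was in Cy5, and on 1 array, a dye swap, it was in Cy3. All mice were of a mixed C57BL6/129SV background (90% and 10%) and 30 weeks old by the sample labels, which give no sex, whereas the paper describes females of a somewhat later age. The deletion is in the whole body and constitutive: a floxed allele was deleted by Cre from the adenovirus EIIa promoter, active in oocytes and early embryos. No treatment was named for either genotype. The RNA came from whole tissue, in which fewer cells of a type and less RNA per cell cannot be told apart.

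Lipid droplets are stores of triglyceride and cholesteryl ester, wrapped in a phospholipid monolayer, that bud from the endoplasmic reticulum. FIT proteins and seipin (the product of *Bscl2*) act at the budding site, perilipins cover the surface and govern the access of lipases, G0S2 inhibits adipose triglyceride lipase, and CIDE proteins promote the fusion and growth of droplets or, for CIDEB, also the lipid loading of VLDL. Several of these genes are known targets of the PPAR receptors, and their messages rise in fatty liver.

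A dye-swapped array separates a difference between genotypes, which changes sign with the dyes, from a dye effect, which does not. The swap carries the number 1 in its label and was taken as the same pair of livers as replicate 1. After its sign was turned, so that every log2 ratio reads *Rap1*-deficient over wild-type, its correlation over all tested probes was -0.24 with replicate 1, -0.29 with replicate 2 and -0.27 with replicate 3, whereas the other 3 arrays correlated with each other at 0.64 to 0.85. The swap also had a narrower spread, with an SD of log2 ratios over all tested probes of 0.24, against 0.48 to 0.51 on the other 3 arrays. Of all tested probes, 39.7% had the same sign on both arrays of replicate 1, against 9 of 11 probes of the droplet genes. The droplet genes were selected on these ratios, so their count is a description and not a test. The targeted gene was read by 2 probes, which went opposite ways. One *Terf2ip* probe had the labelled direction on every array, and was well above background in all 4 wild-type channels and in 0 of 4 *Rap1*-deficient channels, with log2 ratios of -1.74, -1.92 and -1.91 for replicates 1, 2 and 3 and -1.68 on the swap. A second *Terf2ip* probe, of unknown place relative to the deleted part, had ratios of 1.17, 1.07, 0.88 and 0.72, and was called higher at 0.96.

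The stretch before the start site was read for 9 of the 10 genes, 13 windows in all, from RefSeq (assembly GRCm38.p6), each from 250 bases before the start site to 50 after it. The 250 bases upstream of *Fitm1*, *G0s2* and *Cideb* are shown, the first 2 for the largest fitted differences among the droplet genes and the last for a TATA box match, which is in capitals. They lie at chr14:55575424-55575673 on the plus strand, chr1:193273189-193273438 on the minus strand and chr14:55758425-55758674 on the minus strand.
Fitm1: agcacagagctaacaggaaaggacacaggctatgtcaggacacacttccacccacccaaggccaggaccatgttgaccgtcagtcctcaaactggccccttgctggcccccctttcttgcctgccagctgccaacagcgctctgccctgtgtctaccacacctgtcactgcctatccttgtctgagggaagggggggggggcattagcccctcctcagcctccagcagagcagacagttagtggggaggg
G0s2: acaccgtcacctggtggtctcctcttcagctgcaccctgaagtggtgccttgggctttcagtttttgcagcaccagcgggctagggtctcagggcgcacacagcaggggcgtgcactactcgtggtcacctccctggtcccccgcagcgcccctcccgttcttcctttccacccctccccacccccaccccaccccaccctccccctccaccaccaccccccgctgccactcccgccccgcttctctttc
Cideb: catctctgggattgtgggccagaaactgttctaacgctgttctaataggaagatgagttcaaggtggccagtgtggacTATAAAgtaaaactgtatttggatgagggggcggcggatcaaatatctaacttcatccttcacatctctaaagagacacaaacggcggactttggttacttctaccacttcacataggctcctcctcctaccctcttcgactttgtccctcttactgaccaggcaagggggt
The TATA box letters TATAAA, searched on both strands, were found in 1 of the 13 windows, that of *Cideb*, at -172 to -167 from the start site, and in 13.6% of all 32851 windows of the table. The E-box CACGTG was found in 1 of the 13, that of *Plin2*, at -4 to 1, and in 7.15% of all windows. The PPAR element (AGGNCA repeated after 1 base), the SREBP element TCACNCCAC, the STAT element TTCNNNGAA and the CREB element TGACGTCA were found in 0 of the 13 windows, and in 0.381%, 1.24%, 8.3% and 1.79% of all windows. These letters describe the windows, and no match says only that they are not in this stretch. In the 250 upstream bases, *Fitm1* had 2 CpG dinucleotides and *G0s2* and *Fitm2* 11 each.

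Messages of most droplet genes had a higher fitted value in *Rap1*-deficient than in wild-type liver, but the number called depended on the fit. Of 11 probes bright enough to be tested, 9 were called higher at a false discovery rate under 0.15, the threshold of the study, 0 were called lower (0 also at an unadjusted p under 0.05 in limma) and 2 were not called. The background was high: 20.8% of all 27513 tested probes were called higher and 13.7% lower, or 34.5% in either direction. With the dye fitted as a term over the 4 arrays, 1 of the 11 was called higher, beside 4.61% of all tested probes. With the swap as its own replicate 0 were (0.0981% of all), and without replicate 2 also 0 (0.00363% of all). The 9 probes called belong to *Cideb* (both probes), *Cidec* (1 of 2), *Plin2*, *Plin5*, *G0s2*, *Fitm1*, *Fitm2* and *Bscl2*, and those not called to *Cidec* (the other probe) and *Plin4*. *Cidea* was too dim to be tested. The median fitted log2 fold change was 0.41 over the 11 probes and 0.03 over all tested probes. Adjusted p-values from limma, over all tested probes, ran from 0.033 to 0.128 for the 9 called probes and were 0.507 and 0.762 for the other 2.

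**Figure D1:**
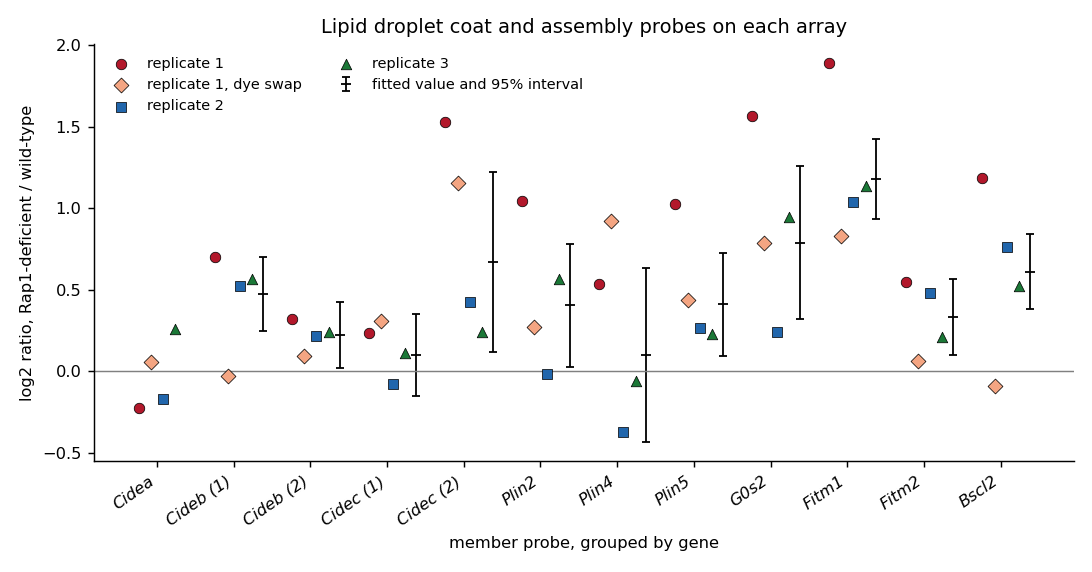
Log2 ratio of *Rap1*-deficient over wild-type signal (vertical axis) for each of the 12 probes (horizontal axis) on the 4 arrays, with the fitted value over 3 pairs of livers and its 95% interval for the 11 tested probes. Replicate 1 (circles) was the highest of the 3 arrays of one dye orientation for every tested probe, and the dye swap (diamonds) was below 0 for *Bscl2* and the first *Cideb* probe.

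*Fitm1* encodes an endoplasmic reticulum protein that binds triglyceride and promotes droplet formation, and is known mainly from skeletal muscle and heart. Its log2 ratio was 1.89, 1.04 and 1.14 in replicates 1, 2 and 3 and 0.83 on the dye swap. All 4 arrays were above 0, and the *Rap1*-deficient channel, at 7.67 to 8.75 in log2 intensity, did not overlap the wild-type channel, at 6.63 to 7.08. Over the 3 pairs the fitted log2 fold change was 1.18 (SE 0.10, 95% interval 0.93 to 1.43, n = 3), or 2.27-fold. With the signals that the scanner software had processed it was 2.08 and was called. The wild-type channel was close to background: the lowest wild-type signal well above it was 6.29 on the array of replicate 1. The size of the fold is therefore limited by how background is handled. *Fitm1* was the one droplet probe still called when the dye was fitted as a term over the 4 arrays, at 1.10 with an adjusted p of 0.068 in limma, in a fit that called 4.61% of all tested probes higher. That fit took both arrays of replicate 1 as independent, so its p-value does not measure the spread between livers alone.

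Skeletal muscle, where *Fitm1* is normally abundant, was checked by its markers. *Myh1*, *Myh2*, *Mb* and *Mylpf* were not well above background in any channel, and *Ckm* was well above background in 0 of 4 *Rap1*-deficient channels and in 1 of 4 wild-type channels. *Acta1* was well above background in 3 of 4 channels of each genotype, with log2 ratios of -0.13, -0.30 and -0.21 in replicates 1, 2 and 3 and -0.02 on the swap. *Myh4* was called lower, at -0.61. Of 14 muscle markers 6 were tested, with 0 called higher (0 at an unadjusted p under 0.05 in limma), 2 called lower and 4 not called. In *Rap1*-deficient channels the summed normalized intensity of the list was 1591 in replicate 1, 1850 on the swap, 1393 in replicate 2 and 1364 in replicate 3. In wild-type channels it was 1515 to 1978. Of the 14 markers, 6 were higher on both arrays of replicate 1 than in replicates 2 and 3 (17.8% of all tested probes were). The share of *Fitm1* signal that comes from muscle in these samples was not tested.

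*Fitm2*, the widely expressed relative of *Fitm1*, had log2 ratios of 0.55, 0.48 and 0.21 in replicates 1, 2 and 3 and 0.07 on the swap. The channels did not overlap, at 6.99 to 7.31 against 6.68 to 6.94 in log2 intensity, and the swap lay closest to 0. Its fitted log2 fold change was 0.33 (SE 0.09, 95% interval 0.10 to 0.57), and 0.54 with the software's processed signals. It was not called without replicate 2 (0.26) or replicate 3 (0.39), with the dye as a term (0.24) or with the swap as its own replicate (0.33).

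*Bscl2* encodes seipin, which joins nascent droplets to the endoplasmic reticulum and whose loss causes congenital lipodystrophy. Its log2 ratio was 1.18, 0.76 and 0.53 in replicates 1, 2 and 3 and -0.09 on the swap. The 3 arrays of one orientation were high and the swap was near 0 with the opposite sign, so that the channels of the genotypes overlapped. Over the 3 pairs the fit gave a log2 fold change of 0.61 (SE 0.09, 95% interval 0.38 to 0.84). With the dye as a term it was 0.37 and was not called. Nor was *Bscl2* called without replicate 2 (0.54) or with the swap as its own replicate (0.60).

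*G0s2* encodes the inhibitor of adipose triglyceride lipase (*Pnpla2*). It had log2 ratios of 1.57, 0.25 and 0.95 in replicates 1, 2 and 3 and 0.79 on the swap, all above 0, with replicate 2 the lowest. The *Rap1*-deficient channel was at 12.78, 11.42, 12.11 and 12.51 in log2 intensity and the wild-type channel at 11.21, 11.17, 11.16 and 11.72, in the same order of arrays. Each array had the *Rap1*-deficient channel on top, and replicate 2 of the *Rap1*-deficient livers lay below the wild-type channel of the swap. Fitted over the 3 pairs, the log2 fold change was 0.79 (SE 0.19, 95% interval 0.32 to 1.26). Without replicate 3 it was 0.71 and was not called. Nor was *G0s2* called without replicate 2 (1.06), with the dye as a term (0.85) or with the swap as its own replicate (0.89). *Pnpla2* itself had a fitted log2 fold change of -0.03 and *Abhd5*, its coactivator, 0.00, and neither was called.

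**Figure D2:**
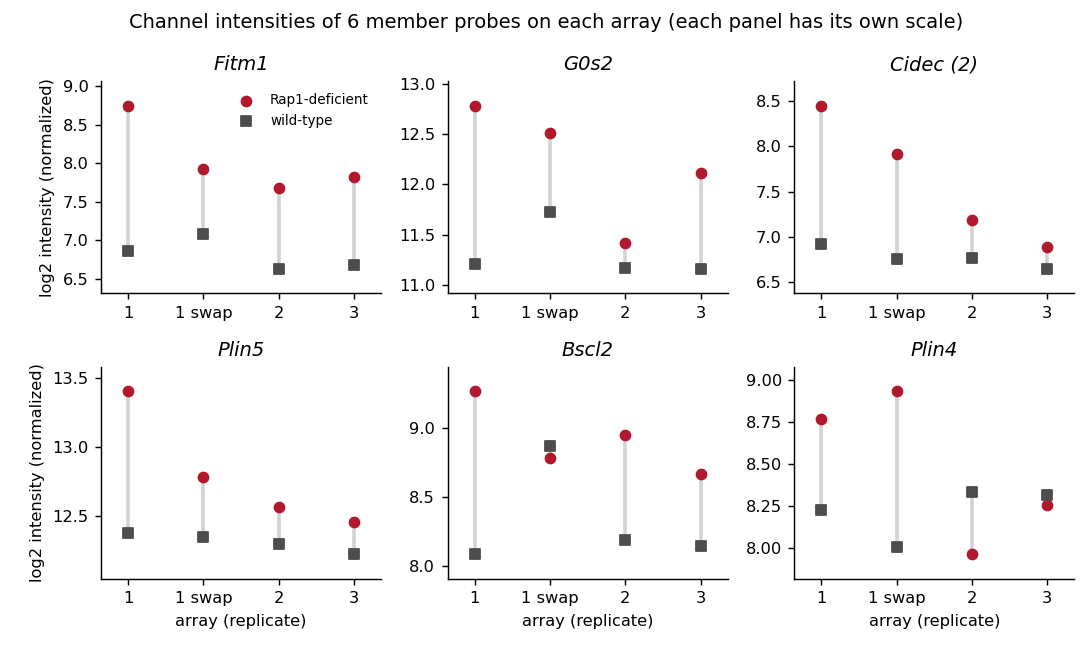
Normalized log2 intensity of the *Rap1*-deficient (circles) and wild-type (squares) channel of each array (horizontal axis) for 6 probes, each panel with its own vertical scale. The circles lie above the squares on all 4 arrays for *Fitm1*, *G0s2*, the second *Cidec* probe and *Plin5*, on 3 of 4 for *Bscl2*, and only on both arrays of replicate 1 for *Plin4*.

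*Plin2*, the general droplet coat protein of hepatocytes, had log2 ratios of 1.05, -0.01 and 0.57 in replicates 1, 2 and 3 and 0.28 on the swap. Replicate 2 was near 0, and the array of replicate 1 was the highest of the 4. The fitted log2 fold change was 0.41 (SE 0.15, 95% interval 0.03 to 0.78). Without replicate 1 it was 0.28 with an adjusted p of 0.262 in limma, and was not called. It was 0.61 without replicate 2 and 0.32 without replicate 3, and was called in neither fit. Nor was *Plin2* called with the dye as a term (0.40) or with the swap as its own replicate (0.47).

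*Plin5* encodes the perilipin of oxidative tissues, which ties droplets to mitochondria. Log2 ratios were 1.03, 0.27 and 0.23 in replicates 1, 2 and 3 and 0.44 on the swap, so both arrays of replicate 1 lay above replicates 2 and 3. The channels did not overlap, at 12.45 to 13.40 against 12.22 to 12.37 in log2 intensity. The fit gave 0.41 (SE 0.13, 95% interval 0.10 to 0.73), and 0.25 without replicate 1. *Plin5* was not called with the software's processed signals (0.39, adjusted p 0.158 in limma) or without replicate 3 (0.50, adjusted p 0.160). Nor was it called without replicate 2 (0.48), with the dye as a term (0.47) or with the swap as its own replicate (0.49).

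*Plin4*, a perilipin known from adipocytes and muscle, had the opposite sign in different livers. Its log2 ratio was 0.54 on the array of replicate 1 and 0.93 on the swap, but -0.37 in replicate 2 and -0.06 in replicate 3. The fitted log2 fold change of 0.10 (SE 0.21, 95% interval -0.43 to 0.64) covers a difference in either direction, and without replicate 1 it was -0.21.

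*Plin1* and *Plin3*, the perilipins outside the group, are given for comparison. *Plin3*, which is expressed widely, had log2 ratios of 0.04, 0.15, 0.30 and 0.04 on the swap, a fitted value of 0.16, and was not called. The *Plin1* probe, for the coat protein of adipocyte droplets, was well above background in the *Rap1*-deficient channel of both arrays of replicate 1 and in no other channel. It was at least 1.31-fold higher on the array of replicate 1 and at least 1.35-fold higher on the swap, measured against the lowest signal well above background on that array.

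*Cidec*, also called *Fsp27*, encodes the protein that makes large droplets in adipocytes and is low in lean liver. The second of its probes had log2 ratios of 1.53, 0.43 and 0.24 in replicates 1, 2 and 3 and 1.16 on the swap. Both arrays of replicate 1 were far above the other livers, and replicates 2 and 3 were above 0. The wild-type channel stayed at 6.65 to 6.92 in log2 intensity, whereas the *Rap1*-deficient channel was at 8.45 and 7.91 in replicate 1 and its swap and at 7.19 and 6.89 in replicates 2 and 3. The fitted log2 fold change was 0.67 (SE 0.22, 95% interval 0.12 to 1.22). It was 0.33 without replicate 1 and 1.15 with the software's processed signals. The probe was not called without replicate 2 (0.79), with the dye as a term (0.94) or with the swap as its own replicate (0.84).

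The first *Cidec* probe carries the same accession but showed less. Its log2 ratios were 0.23, -0.08 and 0.11 in replicates 1, 2 and 3 and 0.31 on the swap, with a fitted value of 0.10 (SE 0.10, 95% interval -0.15 to 0.35). It lay below the second probe by 1.30, 0.50 and 0.13 in replicates 1, 2 and 3 and by 0.85 on the swap. Both probes were highest in the livers of replicate 1. Where each probe lies in the transcript is not known here.

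*Cideb*, the CIDE gene of hepatocytes, was bright on both of its probes. The first had log2 ratios of 0.70, 0.52 and 0.57 in replicates 1, 2 and 3 and -0.03 on the swap, and a fitted log2 fold change of 0.48 (SE 0.09, 95% interval 0.25 to 0.70). The second had 0.32, 0.22 and 0.24 and, on the swap, 0.09, with a fitted value of 0.22 (SE 0.08). With the dye as a term the first was at 0.29 and the second at 0.18, and neither was called. Neither was called without replicate 2 or with the swap as its own replicate. The second was not called with the software's processed signals or in the authors' value table, at adjusted p-values of 0.231 and 0.209 in limma, nor without replicate 3, and was at 0.41 under median centring. Replicates 1, 2 and 3 lay close together on each probe, and the swap was near 0 on both. The probes differed by 0.38, 0.31 and 0.32 in replicates 1, 2 and 3, and by -0.12 on the swap, first minus second.

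*Cidea*, best known from brown fat, was not well above background in any wild-type channel and was above it in 1 of 4 *Rap1*-deficient channels, that of replicate 3. Its log2 ratios were -0.22, -0.17 and 0.26 in replicates 1, 2 and 3 and 0.06 on the swap. In replicate 3 it was at least 1.16-fold higher in the *Rap1*-deficient liver. The brown fat marker *Ucp1* was not well above background in any channel.

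The 2 arrays of replicate 1 allow the ratio of each probe to be split into the mean of both arrays, in which a dye effect cancels, and the departure of each array from that mean, which is the dye component. The balanced value of replicate 1 was above 0 for all 11 tested probes, from 0.21 for the second *Cideb* probe to 1.36 for *Fitm1*. It was 1.34 for the second *Cidec* probe, 1.18 for *G0s2*, 0.73 for both *Plin4* and *Plin5*, 0.66 for *Plin2* and 0.55 for *Bscl2*. The dye component ran from -0.19 (*Plin4*) to 0.64 (*Bscl2*), with a median of 0.30, and was positive for 9 of 11 probes. Over all tested probes its median was 0.01, its SD 0.31, and 51.9% were positive. *Bscl2* and the first *Cideb* probe had a dye component larger than their balanced value.

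**Figure D3:**
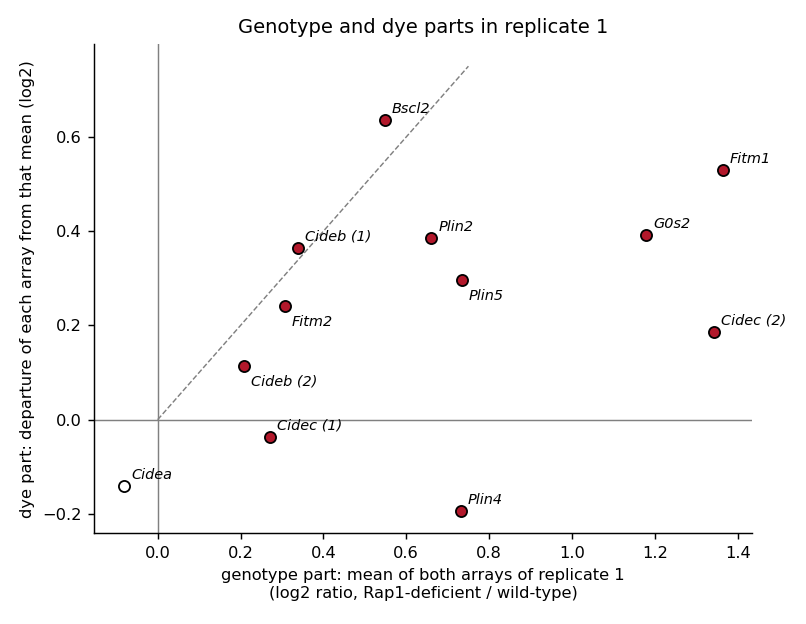
Mean log2 ratio of both arrays of replicate 1 (horizontal axis) against the dye component, the departure of each array from that mean (vertical axis), for the 12 probes; the open point, *Cidea*, was not tested, and the dashed line marks equal parts. *Cidec*, *Plin4*, *G0s2* and *Fitm1* lie far to the right of the line, and *Bscl2* and the first *Cideb* probe lie above it.

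Replicates 2 and 3 were hybridised in a single orientation, so their dye component was not measured. Of the 11 tested probes, 6 were above 0 on all 4 arrays (10.6% of all tested probes were): the second *Cideb* probe, the second *Cidec* probe, *Plin5*, *G0s2*, *Fitm1* and *Fitm2*. On the swap alone 9 of 11 were above 0, against 48% of all tested probes. As the genes were selected on these ratios, such counts are a description. Channels that did not overlap between genotypes over the 4 arrays were seen for *Plin5*, *Fitm1* and *Fitm2*, and in 4.72% of all tested probes in that direction.

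The array of replicate 1 with *Rap1*-deficient RNA in Cy5 stood apart within the group. It was the highest of the 3 arrays of one orientation for 11 of 11 tested probes, which held for 37.1% of all tested probes. The mean of both arrays of replicate 1 was below replicate 2 or 3 for both *Cideb* probes, *Fitm2* and *Bscl2*, and above them for the other tested probes. That mean was above replicates 2 and 3 for 35.4% of all tested probes. Both arrays of replicate 1 lay above replicates 2 and 3 for 4 of the 11, namely both *Cidec* probes, *Plin4* and *Plin5*, and for 17.8% of all tested probes. With replicate 1 and its swap left out, 8 of the 11 probes were called higher in a fit of 2 arrays of one orientation, which called 26.4% of all tested probes higher. Without replicate 2 the count was 0, in a fit that called 0.00363% of all tested probes higher, and without replicate 3 it was 4 (*Fitm1*, *Bscl2*, the first *Cideb* and the second *Cidec* probe), beside 6.92%. With the swap taken as a replicate of its own it was 0, beside 0.0981%. At an unadjusted p under 0.05 in limma the counts were 7 without replicate 2 and 9 with the swap as a replicate. The latter fit took both arrays of replicate 1 as independent.

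Some adipocyte markers were also high on both arrays of replicate 1, and others were not. *Adipoq*, the adipocyte hormone adiponectin, had log2 ratios of 1.73, 0.07 and -0.23 in replicates 1, 2 and 3 and 1.85 on the swap, and was well above background in 0 of 4 wild-type channels. *Retn* had 1.25, 0.10 and 0.07, and 1.35 on the swap. *Cfd*, the adipokine adipsin, had 2.35, 0.40 and -1.12, and 2.28 on the swap. *Lep* was not well above background in any channel. *Adrb3*, an adrenergic receptor of fat, was called lower at -1.24, with -1.86, -1.32 and -1.21 in replicates 1, 2 and 3 and -0.52 on the swap. *Slc2a4*, the insulin-regulated glucose transporter, was called higher at 0.70 but had -0.36 in replicate 1, with 1.14 and 0.76 in replicates 2 and 3 and 0.77 on the swap. Of 15 adipocyte markers, 7 (46.7%) were higher on both arrays of replicate 1 than in replicates 2 and 3, 1 of them (*Cav1*) never well above background. The same held for 6 of 14 skeletal muscle markers (42.9%), for 0% to 25% of each remaining cell type list and for 17.8% of all tested probes. Of the 15 adipocyte markers, 5 were not well above background in any channel, and 2 of 7 tested were called higher (*Slc2a4* and *Car3*, which liver also expresses) and 1 lower. The summed normalized intensity of the list was 67248 to 98841 in *Rap1*-deficient and 35587 to 55792 in wild-type channels, of which *Car3* alone made up 64886 to 96330 and 32933 to 53556. Without *Car3* the sum was 3882 in replicate 1, 4398 on the swap, 2511 in replicate 2 and 2362 in replicate 3 in the *Rap1*-deficient channels, against 2235 to 2910 in the wild-type channels. The share of *Cidec*, *Plin4* and *Plin1* signal that comes from adipocytes in these samples was not tested.

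**Figure D4:**
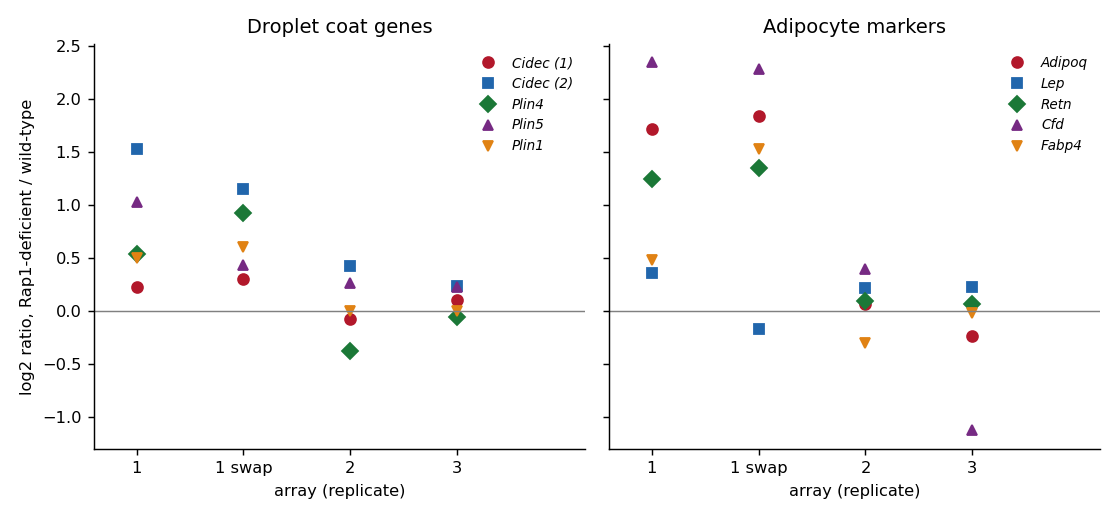
Log2 ratio of *Rap1*-deficient over wild-type signal (vertical axis) on the array of replicate 1, its dye swap and the arrays of replicates 2 and 3 (horizontal axis) for droplet coat genes (left) and 5 adipocyte markers (right). *Adipoq*, *Retn*, *Cfd*, *Fabp4*, *Plin1*, *Plin4*, *Plin5* and both *Cidec* probes were higher on both arrays of replicate 1 than in replicates 2 and 3, and *Lep* was not. *Adrb3* and *Slc2a4*, which did not show this order, are not drawn.

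Genes that act on droplets in other ways are given for the same fit, with no test of the lists against each other. Of 25 tested genes for other droplet proteins, 7 were called higher, 3 lower and 15 not, with a median log2 fold change of 0.03. Of 19 genes of lipolysis and lipophagy, 3 were called higher, 4 lower and 12 not, with a median of -0.03. *Ces1g* and *Ces3a*, carboxylesterases that hydrolyse lipid, were called lower, with log2 fold changes of -0.92 and -1.36, and *Lipa*, lysosomal acid lipase, higher at 0.60, each with one direction on all 4 arrays. Over all 13167 named genes tested, 1 probe a gene, 2376 were called higher and 2120 lower, with a median of 0.00.

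Of 19 genes of triglyceride synthesis, 6 were called higher, 1 lower and 12 not, with a median of 0.17. *Lpin2*, a phosphatidate phosphatase, was at 1.13, *Gk*, glycerol kinase, at 0.52, and *Agpat2*, which makes phosphatidate, at 0.44. Among 22 regulators 6 were called higher, 2 lower and 14 not, with a median of 0.08. *Pparg*, which drives *Cidec* in fatty liver, had log2 ratios of 0.77, 0.52 and 0.45 in replicates 1, 2 and 3 and 0.35 on the swap, and a fitted value of 0.51. *Ppara*, the receptor of the fasting liver, had 0.99, 0.94 and 0.90, and 0.15 on the swap, on its brightest probe. A second *Ppara* probe was called higher at 0.68, and the remaining probe was at -0.21 and not called. *Mlx*, the partner of ChREBP, was at 0.42.

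**Figure D5:**
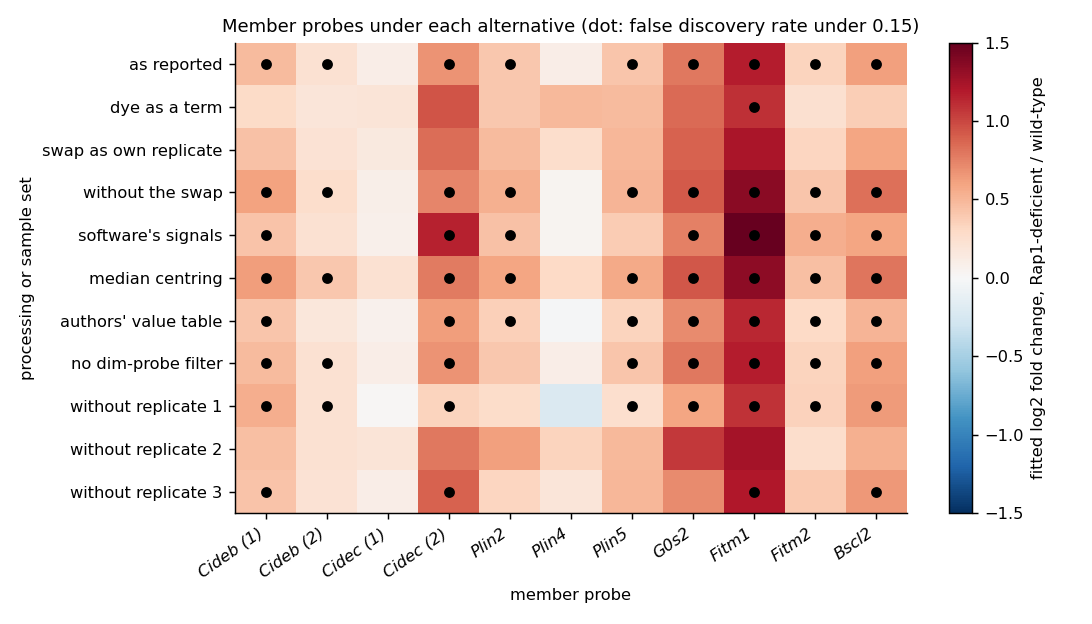
Fitted log2 fold change of *Rap1*-deficient over wild-type (colour) of the 11 tested probes (horizontal axis) under the reported processing and 10 alternatives (vertical axis), with a dot where the false discovery rate was under 0.15. *Fitm1* was called in 9 of the 11 settings drawn, and the fit without replicate 2 and that with the swap as its own replicate called none of the 11 probes.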

How the data were processed

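Per the labels, 4 Agilent 2-colour arrays of liver RNA (100 ng labelled, RNA integrity numbers 6.6 to 8.7 over all samples) were hybridised, all on 1 slide with 1 scan time. Scans were deposited as spot intensities of Agilent Feature Extraction (10.7.3.1 in the headers; another version in the study's methods). The deposited columns used were the median spot and background intensities of both dyes, as scanned, and the software's processed intensities (background-subtracted, dye-normalized). The log10 ratio in the deposited scans equals the ratio of those processed intensities, Cy5 over Cy3. Which genotype was in which dye was taken from the labels. The authors' value table holds log2 ratios, which their processing notes credit to limma, with column medians of -0.01, -0.02 and -0.02 for replicates 1, 2 and 3 and 0.000826 for the swap. Its swap column was already turned. How it was background-corrected and normalized is not stated.

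Median intensities were background-corrected (normexp, offset of 50), then loess-normalized array by array, control spots at weight 0 and outlier-flagged spots left out, in limma 3.58.1 under R 4.3.3. The swap was turned and averaged with replicate 1. The intensities given per genotype are channel values after a further step between arrays (limma's Aquantile), which gives the mean intensities of all arrays the same distribution. The log2 ratios did not use that step, and no probe's level is set against another's. Tested probes had a share of 0.5 or more of their spots well above background, in 1 genotype or both, on all 4 arrays, which kept 27513 probes (49.4%). In each channel 50.1% to 56.4% of spots passed that flag and none was saturated, and precision is limited by the number of arrays. lmFit and eBayes were fitted over 3 pairs with Benjamini-Hochberg adjustment over all tested probes. The fit was also run on simulated ratios with no dye effect, which cannot show whether calls in these data reflect genotype or dye. P-values of this fit measure the spread between the 3 pairs, which the study calls biological replicates. Replicate 1 entered as the mean of both dye orientations and the other pairs in a single orientation. A dye effect can therefore enter both the fitted value and that spread, so the p-values do not measure the spread between livers alone. With the dye as a term or the swap as its own replicate, the array was the unit and the livers of replicate 1 entered on both of their arrays.

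Probes carry accessions, and 26056 of 55681 (46.8%) were named through a RefSeq table of GRCm38.p6. The scan headers name mm9, so no probe coordinates are given. The members and the lists were chosen with earlier results of these data known. Named were all members and *Plin1* and *Plin3*, from each pathway list up to 3 called genes of smallest p with one direction on all 4 arrays, the first 3 markers of each cell type list and *Terf2ip*; *Pnpla2*, *Abhd5*, the other adipocyte and muscle markers and *Mogat1* were chosen after their values were seen. A list counts 1 probe a gene, the brightest. Alternatives were other background, normalization and filter settings, the dye as a term, the swap left out or as its own replicate, the authors' value table, and each replicate left out.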

Additional observations from a re-analysis of the deposited data

Results flagged for a closer look

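*Cidea* and *Plin1*, which were too dim for the comparison, were nonetheless well above background in single *Rap1*-deficient channels and in 0 of 4 wild-type channels. *Cidea* was at a log2 intensity of 6.48 in replicate 3. *Plin1* was at 6.68 in replicate 1 and at 6.55 on its dye swap. No group held 4 or more independent pairs, so no liver was examined as standing apart from its group by a test.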

How the results depend on the processing

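Of the 11 tested probes, 9 were called higher. With the dye as a term the count was 1, with the swap as its own replicate 0, and with each replicate left out 0 to 8, 0 without replicate 2 and 4 without replicate 3; the other settings gave 7 to 9 calls, and 0 probes were called lower in any. Only *Plin4*, which was not called, changed sign, to -0.018 in the authors' value table and, over fits with a replicate left out, ran from -0.21 (without replicate 1) to 0.34. The median dye component of 0.30 was 0.71 under median centring, which moved the median of all tested probes from 0.03 to 0.17. Over all tested probes 5717 were called higher and 3771 lower, against 5676 and 796 under median centring, 4830 and 4961 with the software's processed signals, and 4540 and 5482 in the value table. Over all pathway lists 22 genes were called higher and 10 lower: 11 and 4 with the dye term, 0 and 1 with the swap as its own replicate, 28 and 4 under median centring, and 0 to 24 and 0 to 18 with a replicate left out. Over all cell type lists 14 were called higher and 5 lower: 5 and 2 with the dye term, 0 and 1 with the swap as its own replicate, 23 and 6 without the swap, 15 and 3 under median centring, 13 and 8 in the value table, and 0 to 27 and 0 to 5 with a replicate left out. The counts of 0 fell to the fits without replicate 2 and with the swap as its own replicate; at an unadjusted p under 0.05 in limma these gave 18 and 19 higher in the pathway lists and 10 and 9 in the cell type lists, and the fit without replicate 2 gave 5 and 3 lower. The cause of these changes was not tested. Every fit was already paired, since each array carries both genotypes. The pair of livers is the unit, except in the fits with the dye as a term and with the swap as its own replicate. Those fits take the array as the unit, so both arrays of replicate 1 enter them as if independent. Replicates 2 and 3 were not dye-swapped, so a dye effect on them cannot be told apart from genotype, and dim probes near background limit *Cidea* and *Plin1*. The wild-type channels of *Fitm1*, *Fitm2* and both *Cidec* probes were also close to background, which limits the size of their fold changes.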

Other observations

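The summed signal of Kupffer cell and macrophage markers was highest in replicate 3 of the *Rap1*-deficient livers. *Clec4f* had log2 ratios of -0.32, 0.53 and 0.97 in replicates 1, 2 and 3 and -0.46 on the swap, and *Cd5l* had -0.86, -0.00 and 1.14, and -0.26 on the swap. *Vsig4* did not follow this order, with -1.05, -0.23 and -0.13, and 0.13 on the swap. The summed normalized intensity of the list was 93406 in replicate 3 of the *Rap1*-deficient livers and 26989 in replicate 1, against 40459 to 43284 in wild-type channels. Of 12 tested, 1 was called higher and 1 lower, beside 2376 and 2120 of all 13167 named genes tested.

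Of 14 stellate cell markers 3 were called higher and 0 lower (0 at an unadjusted p under 0.05 in limma), and *Lrat*, *Des* and *Reln* were at -0.07, 0.13 and 0.20 and not called. Of 12 sinusoidal endothelial markers 4 were called higher and 1 lower, and *Stab1*, *Stab2* and *Clec4g*, at 0.17, 0.07 and -0.09, were not. Of 6 tested cholangiocyte markers 2 were called higher, among them *Krt19* at 0.38. Of 15 hepatocyte markers 2 were called higher, among them *Alb* at 0.54, while *Ttr* and *Apoa1*, at 0.33 and 0.14, were not. On the dye swap 0 of the 15 were above 0. Among all 13167 named genes tested, 2376 were called higher and 2120 lower, and 6795 were above 0 on the swap.

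*Mogat1*, a monoacylglycerol acyltransferase of fatty liver, had log2 ratios of 1.25, 0.19 and 0.03 in replicates 1, 2 and 3 and 1.16 on the swap, the order of arrays seen for the second *Cidec* probe. It was not called, and was chosen after its values were seen.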
